A study of Homo sapiens with 12 samples.

Results

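SOCS2-AS1, HOXC13-AS, LINC00886 and LINC02593 are 4 long noncoding RNA genes, 4 of the 58302 genes in the count table and 4 of the 17188 that had enough counts to be tested. They were selected because BMP or MIB1 KO appeared to change their counts in these same 12 libraries, so their own values are given below as a description and without a p. That a member missed the threshold is stated only as a limit. Genes that were not named in that selection, such as their neighbours, were tested. The neighbours lie at loci chosen through the members, and SOCS2 and HOXC13 share exon bases with a member.

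A long noncoding RNA is a transcript without a long open reading frame, and an antisense RNA is one copied from the strand opposite to a coding gene. Antisense genes often start close to the start site of the coding gene and are transcribed away from it, and the pair can share one stretch of regulatory DNA. In BMP signaling, ligands such as BMP4 activate receptor kinases that phosphorylate SMAD1, SMAD5 and SMAD9, which bind GC-rich and GTCT-type DNA elements and switch on targets such as the ID genes, SMAD6, SMAD7 and BAMBI. MIB1 is a RING-type E3 ubiquitin ligase best known for its role in Notch ligand endocytosis, and the study asked whether it restrains BMP signaling.

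All libraries came from MIB1-iKO cells, a clonal derivative of the lung cancer line NCIH838. These cells carry Cas9 under a doxycycline (Dox) promoter and a guide RNA against MIB1, and the labels do not name the guide. All cells were first kept for 3 days in 50 nM LDN, an inhibitor of BMP type I receptors, without Dox (WT) or with 0.5 µg/mL Dox (KO). For the next 24 hours all cells received 10 ng/mL BMP4, with LDN kept on (BMP-off) or replaced by DMSO (BMP-on), so no group lacked the ligand and BMP-on means that the receptor block was lifted. The 4 groups, WT BMP-off, WT BMP-on, KO BMP-off and KO BMP-on, had 3 libraries each. Dox and Cas9 induction were present in every KO library and in no WT library, so they cannot be told apart from the loss of MIB1, and no second clone is among the samples. The labels do not say that replicates were separate cultures, so p-values measure the spread between these libraries, which may be technical.

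Total counts ranged from 19124010 to 29498000 per library. MIB1 itself was lower in KO than in WT, with a log2 fold change of -2.34 ± 0.07 (SE) with BMP-on and -2.23 ± 0.07 with BMP-off (edgeR quasi-likelihood, Benjamini-Hochberg adjusted p = 9.7e-12 and 1.85e-11). Epithelial markers were present (summed EPCAM, CDH1, KRT8, KRT18 and KRT19 between 262 and 370 CPM, counts scaled to the size of the library, with KRT19 at 2 counts or fewer), whereas NKX2-1, SFTPB, SFTPC and SCGB1A1, which mark lung epithelium, had at most 2 counts in any library and the 5 lung markers summed to between 0.311 and 1.07 CPM. PTPRC had 0 counts and the 3 blood markers summed to at most 1.05 CPM, while the 3 endothelial markers reached 1.81. The 3 fibroblast markers moved with BMP, between 11.8 and 21.1 CPM in BMP-off libraries and between 29.1 and 42.5 in BMP-on libraries. Nearly all of this was COL1A1, with COL3A1 at 8 counts or fewer, and its part in the results below was not tested. Libraries of a group also differed in how counts followed the GC content of transcripts. The Spearman correlation of residuals with GC, across genes, was -0.60 and 0.59 in KO BMP-off replicates 2 and 3, -0.43 and 0.40 in WT BMP-off replicates 1 and 3, and 0.37 and -0.35 in KO BMP-on replicates 1 and 3, and lay between -0.15 and 0.15 in the other 6. Values with a correction for GC are given below for genes at the HOXC13-AS and LINC02593 loci.

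The members lie on minus strands in GRCh38, by the GENCODE annotation. SOCS2-AS1 (ENSG00000246985, chr12:93542022-93571768) is an 8-exon gene whose 5′ end overlaps that of SOCS2 on the plus strand. HOXC13-AS (ENSG00000249641, chr12:53935328-53939643) has 3 exons and overlaps the 5′ end of HOXC13 at the edge of the HOXC cluster. LINC00886 (ENSG00000240875, chr3:156747343-156817062) spans 69720 bases in 5 exons, holds the processed pseudogene PA2G4P4 in an intron, and lies between TIPARP and LEKR1. LINC02593 (ENSG00000223764, chr1:916865-921016) is annotated as 1 exon of 4152 bases and overlaps no other gene, with SAMD11 starting 2906 bases beyond its 5′ end on the opposite strand.

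Promoter sequences of 300 bases (250 before and 50 after the annotated start) were taken from RefSeq for 2 of the 4 members, with no entry used for SOCS2-AS1 and HOXC13-AS. They are shown because SMAD proteins recognise GC-rich and GTCT elements. Whether such elements act on either gene was not tested. Both are on the minus strand of GRCh38.p14, LINC00886 at chr3:156817013-156817312 and LINC02593 at chr1:919643-919942, which lies inside the GENCODE span of the gene. Capitals mark GGCGCC in the first and GGAGCC, on either strand, in the second.
LINC00886: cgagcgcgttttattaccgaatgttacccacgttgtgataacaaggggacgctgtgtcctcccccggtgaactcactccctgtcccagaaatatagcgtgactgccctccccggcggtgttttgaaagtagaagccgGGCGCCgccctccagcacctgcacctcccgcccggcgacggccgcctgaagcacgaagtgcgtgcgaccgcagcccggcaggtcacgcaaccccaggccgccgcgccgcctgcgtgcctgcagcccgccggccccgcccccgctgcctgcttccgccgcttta
LINC02593: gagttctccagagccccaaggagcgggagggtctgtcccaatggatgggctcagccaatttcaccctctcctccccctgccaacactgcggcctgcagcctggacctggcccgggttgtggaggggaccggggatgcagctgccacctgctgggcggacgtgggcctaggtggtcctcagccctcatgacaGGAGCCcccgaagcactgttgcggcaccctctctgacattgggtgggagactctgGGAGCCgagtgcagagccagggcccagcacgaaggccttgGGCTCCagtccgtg
The LINC00886 promoter held GGCGCC once, 113 bases before the start, and none of the other elements looked for on either strand (GGAGCC and the shorter GTCT, alone or as the palindrome GTCTAGAC). The LINC02593 promoter held GGAGCC 3 times, 59 and 4 bases before the start and, on the opposite strand, 36 bases after it. It also held GTCT 2 times, 220 and, on the opposite strand, 12 bases before the start, and neither of the others. These elements are common, since 19.2% of the 35116 promoters of the same length held GGCGCC, 36.0% held GGAGCC, 84.0% held GTCT and 0.202% held the palindrome, so the matches are a description. GC content was 67.7% for LINC00886 and 66.7% for LINC02593, against a median of 58.7%.

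SOCS2-AS1 was low in both BMP-off groups, higher in WT BMP-on and highest in KO BMP-on. In CPM on TMM-scaled library sizes, WT BMP-off libraries had 1.22, 0.869 and 1.00 and WT BMP-on libraries had 1.77, 2.26 and 2.05. KO BMP-off libraries had 1.05, 1.37 and 0.925 CPM and KO BMP-on libraries had 4.60, 5.28 and 4.35 CPM. The BMP-on and BMP-off libraries did not overlap in either genotype, the 3 KO BMP-on libraries were above all others, and the BMP-off groups overlapped each other. The members were chosen on these contrasts, so such separation is a description, here and for the other members. How many of all genes had groups that did not overlap was not worked out, which also limits such statements on other genes below. The fitted log2 fold change with BMP-on was 0.97 ± 0.20 (SE) in WT cells and 2.08 ± 0.17 in KO cells. KO against WT gave 1.21 ± 0.15 with BMP-on and 0.09 ± 0.22 with BMP-off, so the BMP response was larger in KO by 1.11 ± 0.27 on the log2 scale.

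HOXC13-AS followed the same order of groups with a smaller step between genotypes. Its levels were 0.755, 0.869 and 1.05 CPM in WT BMP-off and 2.32, 1.68 and 1.98 CPM in WT BMP-on. They were 0.628, 0.844 and 1.22 CPM in KO BMP-off and 2.68, 4.02 and 3.26 CPM in KO BMP-on. Every BMP-on library was above every BMP-off library, the KO BMP-on libraries were above the WT BMP-on ones by a narrow margin, and the BMP-off groups overlapped. The log2 fold change with BMP-on was 1.16 ± 0.25 in WT and 1.89 ± 0.23 in KO cells, and KO against WT was 0.73 ± 0.20 with BMP-on and 0.00 ± 0.29 with BMP-off. The difference between the BMP responses was 0.73 ± 0.35.

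LINC00886 was the member that went down, and it did so in a single group. WT BMP-off libraries had 2.23, 2.48 and 1.77 CPM, WT BMP-on libraries 2.49, 1.78 and 2.08 CPM and KO BMP-off libraries 1.95, 2.05 and 1.72 CPM. KO BMP-on libraries had 0.958, 0.992 and 1.05 CPM. The first 3 groups overlapped one another, and the KO BMP-on libraries were below all 9 of the others. The log2 fold change with BMP-on was -0.04 ± 0.17 in WT and -0.93 ± 0.20 in KO cells. With BMP-on, KO against WT gave -1.07 ± 0.20, while the BMP-off value was -0.18 ± 0.17. The BMP responses differed by -0.89 ± 0.26.

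LINC02593 had the fewest counts of the 4 members and the widest BMP responses, although not the widest difference between KO and WT. It stood at 0.503, 0.261 and 0.318 CPM in WT BMP-off and at 1.60, 1.23 and 1.65 CPM in WT BMP-on. In KO cells it stood at 0.454, 0.402 and 0.715 CPM with BMP-off and at 3.14, 2.82 and 3.07 CPM with BMP-on. The 3 KO BMP-on libraries were highest, the WT BMP-on libraries were between them and the BMP-off libraries, and the BMP-off groups overlapped. The log2 fold change with BMP-on was 1.99 ± 0.27 in WT and 2.53 ± 0.22 in KO cells, and KO against WT was 1.02 ± 0.18 with BMP-on, while the BMP-off value was 0.48 ± 0.34. The BMP responses differed by 0.54 ± 0.40. The lowest value rested on 6 counts in 1 library, and mean counts over the 12 libraries were 33.5 for LINC02593, 43.5 for HOXC13-AS, 45.5 for LINC00886 and 55.0 for SOCS2-AS1, so counting error is a sizeable part of each value.

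**Figure D1:**
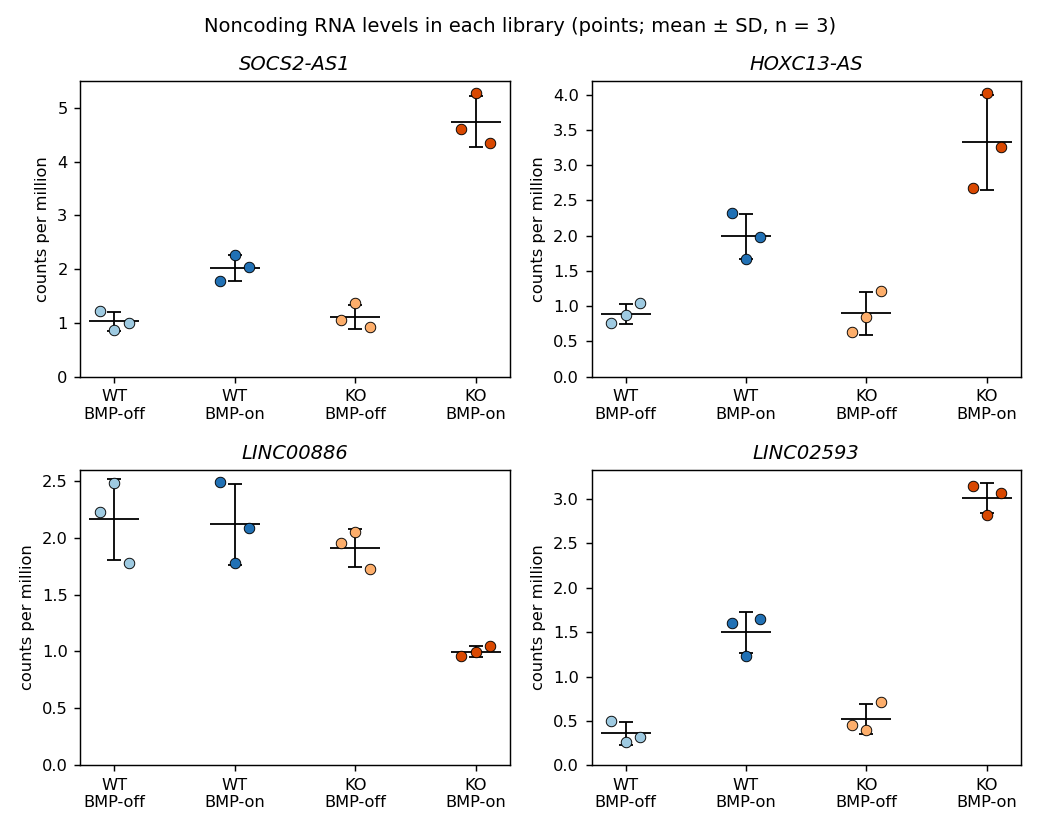
Levels of the 4 noncoding RNAs in CPM on the y axis, for each of the 12 libraries (points) in 4 groups on the x axis, with the mean and SD of 3 libraries. SOCS2-AS1, HOXC13-AS and LINC02593 are highest in KO BMP-on (means 4.74, 3.32 and 3.01) and LINC00886 is lowest there (mean 1.00).

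Per length, by the RPKM values of the authors, the members were all weakly expressed. In KO BMP-on the order was HOXC13-AS at 2.43 ± 0.498 RPKM (SD, n = 3), LINC02593 at 2.23 ± 0.119, SOCS2-AS1 at 1.31 ± 0.135 and LINC00886 at 0.311 ± 0.0148, and the first 2 did not differ beyond their spread. In WT BMP-off the order was LINC00886 at 0.684 ± 0.112 RPKM, HOXC13-AS at 0.661 ± 0.106, SOCS2-AS1 at 0.291 ± 0.0529 and LINC02593 at 0.272 ± 0.0981, where neither the first pair nor the last pair differed beyond its spread. The place of LINC02593 depends on the gene model, since its RPKM was computed by the authors on a length 0.987 times that of HOXC13-AS, whereas GENCODE exons make it 2.95 times as long. In CPM per kb of GENCODE exons, KO BMP-on libraries had 2.36 ± 0.477 for HOXC13-AS, 1.07 ± 0.108 for SOCS2-AS1, 0.725 ± 0.0406 for LINC02593 and 0.252 ± 0.0115 for LINC00886, so that LINC02593 came below SOCS2-AS1. On that scale it was also the lowest in WT BMP-off, at 0.0869 ± 0.0305 against 0.232 ± 0.0401 for SOCS2-AS1.

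A gene passed when its Benjamini-Hochberg adjusted p over the whole table was 0.05 or less. These contrasts chose the members, so no p is given for them and a pass by a member is not counted here. With BMP-on in WT cells 1.91% of all tested genes were higher and 2.01% lower, and LINC00886 did not pass. In KO cells 11.1% of all genes were higher and 10.9% lower. For KO against WT with BMP-on the shares were 1.32% and 2.34%, and HOXC13-AS did not pass. With BMP-off (0.0407% of genes either way) and for the interaction, the test of whether the BMP response differed between KO and WT (0.0931%), none of the 4 passed by edgeR. These background shares moved with the settings, and the 674 genes that passed in the WT response were 1517 with the GC correction. For size, the 9 BMP targets ID1, ID2, ID3, SMAD6, SMAD7, SMAD9, BAMBI, NOG and ATOH8 all rose in both genotypes, with median log2 fold changes of 1.29 (WT) and 1.42 (KO). In bulk RNA, fewer cells with a transcript and less of it per cell cannot be told apart.

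Of the 57 genes annotated within 100 kb of a member, 54 were in the table and 29 had enough counts to be tested. With BMP-on, 7 of the 29 (24.1%) were higher in WT cells and 8 (27.6%) in KO cells, and 0 were lower in either (edgeR, where 11 and 12 had an unadjusted p under 0.05 in any direction). Over all genes 1.91% and 11.1% were higher. The loci were chosen through the members, and SOCS2 and HOXC13 overlap a member, so these shares are a description. The median log2 fold changes of the 29 were 0.25 and 0.31, against 0.0016 and 0.0056 over all genes. For KO against WT with BMP-on, SOCS2, HOXC13 and TIPARP were higher (10.3%, against 1.32% of all genes) and 0 were lower, with 4 at an unadjusted p under 0.05. With BMP-off, 0 of 29 passed by edgeR, DESeq2 or limma-voom, and 3 had an unadjusted p under 0.05 by edgeR. SOCS2 was the 1 neighbour whose BMP response differed between KO and WT.

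SOCS2, the sense partner of SOCS2-AS1, encodes a SOCS box protein that damps cytokine and growth hormone signals. Its levels were 20.6, 20.5 and 19.1 CPM in WT BMP-off, 40.0, 38.3 and 38.6 in WT BMP-on, 20.8, 20.3 and 20.7 in KO BMP-off and 71.5, 74.1 and 74.9 in KO BMP-on. The group order was that of its antisense RNA, and only the BMP-off groups overlapped. SOCS2 rose with BMP-on by 0.96 ± 0.06 on the log2 scale in WT (edgeR Benjamini-Hochberg adjusted p = 3.45e-08) and by 1.83 ± 0.05 in KO cells (adjusted p = 2.15e-12). With BMP-on, KO was above WT by 0.92 ± 0.05 (adjusted p = 5.09e-08), while with BMP-off the difference was 0.04 ± 0.06 (adjusted p = 0.822). The BMP response was larger in KO by 0.88 ± 0.08 (adjusted p = 7.2e-05). MRPL42, a mitochondrial ribosomal protein gene 25807 bases from the other end of SOCS2-AS1 and the other tested neighbour, had log2 fold changes with BMP-on of 0.01 ± 0.05 in WT and -0.00 ± 0.05 in KO cells (adjusted p = 0.93 and 0.973).

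HOXC13, the sense partner of HOXC13-AS, encodes a homeodomain factor known for controlling keratin genes of hair and nail. Its levels were 11.4, 11.3 and 12.2 CPM in WT BMP-off, 22.8, 19.2 and 19.6 in WT BMP-on, 14.2, 13.5 and 15.8 in KO BMP-off and 30.5, 30.9 and 26.0 in KO BMP-on. None of the 4 groups overlapped. HOXC13 rose with BMP-on by 0.82 ± 0.09 in WT and 1.00 ± 0.09 in KO cells (edgeR adjusted p = 6.63e-05 and 9.77e-07), and was higher in KO with BMP-on by 0.51 ± 0.09 (adjusted p = 0.003). With BMP-off the difference of 0.32 ± 0.10 did not pass (adjusted p = 0.354), although it did after a correction for GC content (0.41, adjusted p = 0.0319). The same correction gave BMP responses of 0.77 in WT and 0.83 in KO cells, and both still passed. The difference between the BMP responses went from 0.19 to 0.06 and passed in neither case (edgeR adjusted p = 0.595 and 0.87).

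The rest of the HOXC cluster did not move with this end of it beyond the threshold. Of 13 HOXC genes and noncoding RNAs, 11 were tested, HOXC12 and HOXC-AS2 having too few counts. HOXC13 was the 1 that passed in both BMP responses and, with BMP-on, between KO and WT. The other 10, among them HOTAIR, a long noncoding RNA transcribed between HOXC12 and HOXC11, had median log2 fold changes with BMP-on of 0.25 in WT and 0.17 in KO cells, with 9 of 10 above 0 in each (edgeR, 3 and 2 of 10 at an unadjusted p under 0.05). HOTAIR had 0.26 ± 0.18 and 0.28 ± 0.18 (edgeR adjusted p = 0.563 and 0.269), and HOXC-AS3, another antisense gene of the cluster, had 0.69 ± 0.27 in KO cells (adjusted p = 0.0736). With the GC correction, HOXC10 and HOXC-AS1 went from 0.01 and 0.16 to -0.05 and -0.09 in KO cells, and neither passed.

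**Figure D2:**
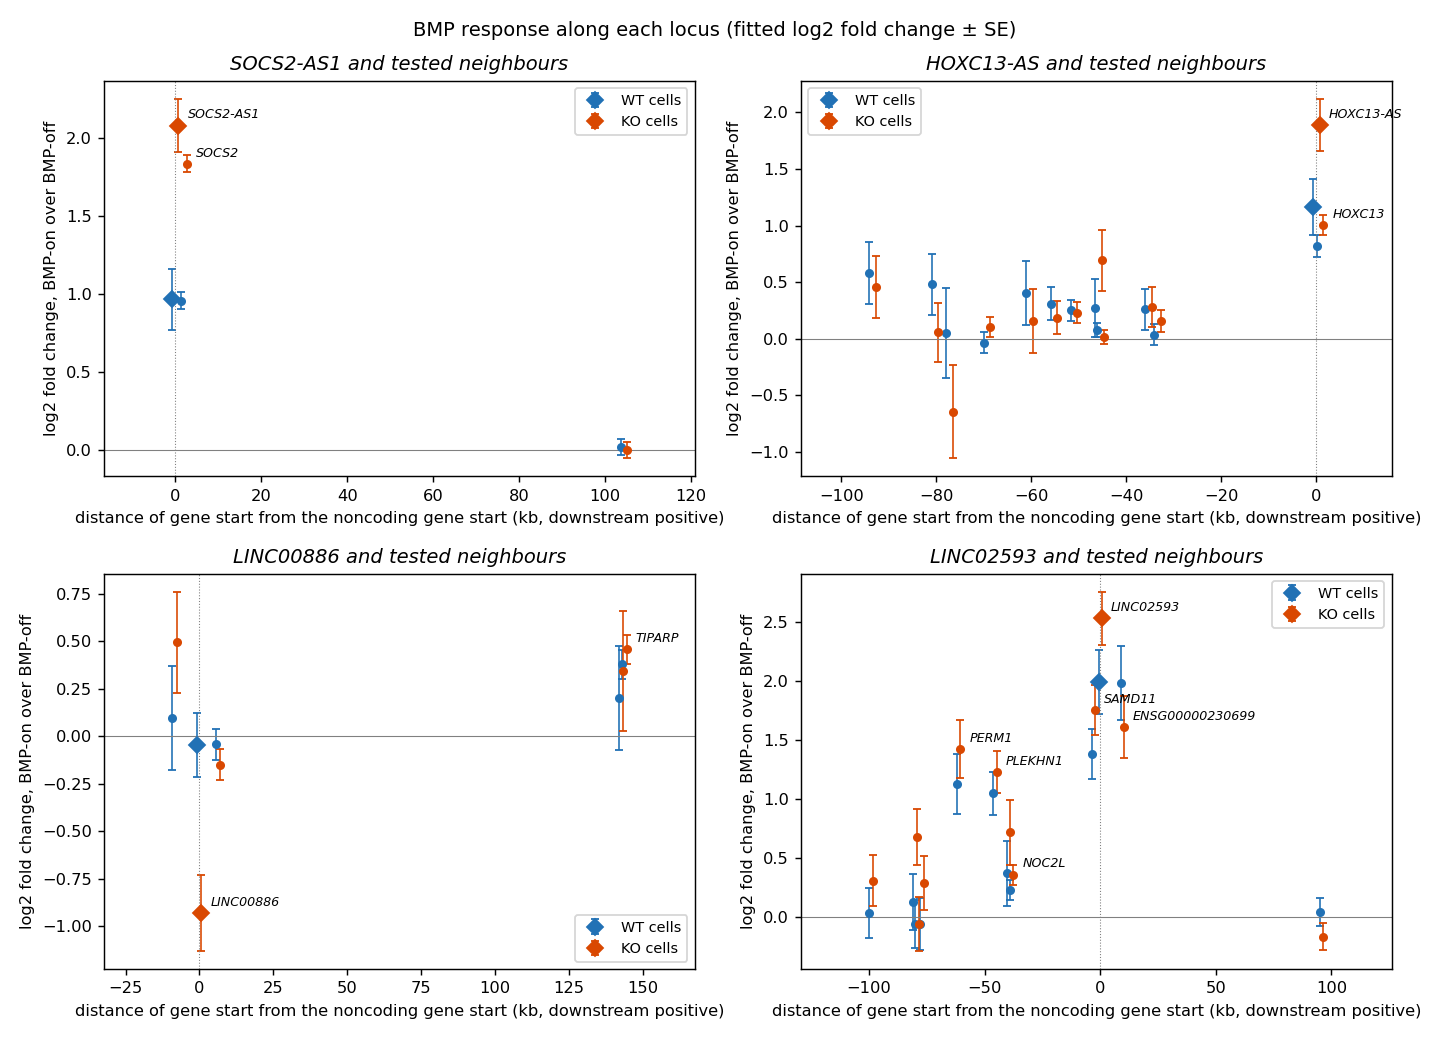
Log2 fold change with BMP-on (y axis, ± SE) for each member (diamonds) and its tested neighbours (circles) in WT and KO cells, against the distance in kb of the gene's start from the member's start (x axis, downstream of the member positive). Labels mark members and the neighbours that passed in KO cells, and SOCS2 (1.83) and SAMD11 (1.76) sit beside their noncoding neighbours whereas LINC00886 (-0.93) is the 1 labelled gene below 0.

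TIPARP, a mono-ADP-ribosyltransferase gene 40572 bases downstream of LINC00886, went the other way from LINC00886. It had 67.5, 65.3 and 66.4 CPM in WT BMP-off, 98.5, 78.5 and 82.5 in WT BMP-on, 80.9, 84.7 and 78.1 in KO BMP-off and 102, 121 and 113 in KO BMP-on. The KO BMP-on libraries were the highest and the WT BMP-off libraries the lowest. TIPARP rose with BMP-on by 0.38 ± 0.08 in WT and 0.46 ± 0.08 in KO cells (edgeR adjusted p = 0.00891 and 0.000474) and was higher in KO with BMP-on by 0.37 ± 0.08 (adjusted p = 0.0101). The first and the last of these missed the threshold without WT BMP-on replicate 1 (adjusted p = 0.0572 for the first) and without WT BMP-on replicate 2 or 3 or KO BMP-on replicate 2 or 3 (adjusted p = 0.0507 to 0.0728 for the last). PA2G4P4 within LINC00886 had -0.15 ± 0.08, LEKR1 on its other side 0.50 ± 0.27 and TIPARP-AS1 0.35 ± 0.32 in KO cells, and none of these passed (edgeR adjusted p = 0.211, 0.197 and 0.513).

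LINC02593 lies near 5 genes that rose with BMP-on in KO cells. SAMD11, which encodes a sterile alpha motif protein and is divergent from LINC02593, had 6.72, 8.83 and 11.4 CPM in WT BMP-off, 22.4, 22.6 and 24.6 in WT BMP-on, 8.34, 6.07 and 11.8 in KO BMP-off and 31.8, 30.1 and 26.3 in KO BMP-on. The BMP-on libraries were above all BMP-off libraries, the KO above the WT ones. SAMD11 rose with BMP-on by 1.38 ± 0.21 in WT and 1.76 ± 0.21 in KO cells (edgeR adjusted p = 0.00392 and 0.000169). KO against WT with BMP-on was 0.34 ± 0.19 (adjusted p = 0.498), whereas LINC02593 had 1.02 ± 0.18.

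The noncoding gene ENSG00000230699, 1916 bases from the 3′ end of LINC02593, rose by 1.98 ± 0.31 in WT and 1.61 ± 0.26 in KO cells (edgeR adjusted p = 0.0012 and 0.000322). PLEKHN1, a pleckstrin homology domain gene, rose by 1.05 ± 0.18 and 1.23 ± 0.18 (adjusted p = 0.00258 and 0.000104). PERM1, known as a regulator of oxidative metabolism in muscle, rose by 1.13 ± 0.26 and 1.42 ± 0.25 (adjusted p = 0.0184 and 0.000572), and its WT call was lost without WT BMP-off replicate 2 or WT BMP-on replicate 1 or 3 (adjusted p = 0.0907, 0.0658 and 0.0886). NOC2L, an inhibitor of histone acetylation that lies between SAMD11 and these, rose in KO cells by 0.36 ± 0.09 (adjusted p = 0.00907), and its WT value of 0.23 ± 0.09 did not pass (adjusted p = 0.186). None of the 11 tested neighbours of LINC02593 passed for KO against WT with BMP-on by edgeR, with 1 at an unadjusted p under 0.05. KLHL17, HES4, ISG15, AGRN, LINC01128 and ENSG00000272512 did not pass in either BMP response, except HES4 and AGRN in KO cells after a correction for GC content.

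This locus is rich in GC, and KO BMP-off replicate 2 was the lowest of its group for SAMD11, NOC2L, PLEKHN1 and PERM1. With the GC correction, the KO response was 1.22 for SAMD11, 0.84 for PLEKHN1, 1.01 for PERM1, 1.37 for ENSG00000230699 and 0.19 for NOC2L (edgeR adjusted p = 1.55e-10, 3.32e-05, 0.00197, 0.000204 and 0.00039), and for LINC02593 it was 2.23. The WT response became 1.19 for SAMD11, 0.92 for PLEKHN1, 0.98 for PERM1 and 1.91 for ENSG00000230699, all still past the threshold, and 1.89 for LINC02593. These kept their direction, and NOC2L passed in WT cells too (0.19, adjusted p = 0.00118). HES4, a transcriptional repressor gene of the Hes family, and AGRN, which encodes the matrix protein agrin, passed in KO cells only with the correction and were lower there. HES4 went from -0.06 to -0.73 (adjusted p = 0.00243) and AGRN from 0.31 to -0.16 (adjusted p = 0.0259), and HES4 was also lower in KO against WT with BMP-on (-0.57, adjusted p = 0.03).

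Both antisense members share bases with their partner, so it matters how reads there were counted. SOCS2-AS1 shares 277 exon bases with SOCS2 (6.24% of its own exons and 4.28% of those of SOCS2), and HOXC13-AS shares 172 with HOXC13 (12.2% and 7.30%). Counts of SOCS2-AS1 per 100 counts of SOCS2 were 5.14 ± 0.852 in WT BMP-off (SD, n = 3), 5.21 ± 0.734 in WT BMP-on, 5.41 ± 1.18 in KO BMP-off and 6.45 ± 0.656 in KO BMP-on. Single libraries ranged from 4.25 to 7.12, and 2 of the 3 KO BMP-on libraries (6.43 and 7.12) were above every WT library, while the third (5.81) was not. KO BMP-off replicate 2, at 6.73, was above the KO BMP-on libraries at 6.43 and 5.81, so the KO groups overlapped. For size, the BMP response of SOCS2-AS1 itself in KO cells was 4.22-fold. For HOXC13-AS the ratio was 7.63 ± 0.991, 9.66 ± 0.801, 6.13 ± 1.66 and 11.4 ± 2.32 per 100 counts of HOXC13 in the same order, and the BMP-on libraries were all above the BMP-off libraries.

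Had the counts of each sense gene been spread evenly over its exons, and had every read in shared bases gone to the antisense gene, SOCS2 would have given a mean of 40.7 counts to SOCS2-AS1, which had 55.0, and HOXC13 34.5 counts to HOXC13-AS, which had 43.5. Observed counts were 1.21, 1.23, 1.26 and 1.49 times this amount for SOCS2-AS1 and 1.04, 1.32, 0.832 and 1.54 times for HOXC13-AS, in the group order above. Among 207 noncoding genes with at least 90% of their exon bases inside exons of 1 well-expressed coding gene on the opposite strand (at least 100 counts per kb), the median count density was 0% of that of the coding gene. Of these, 137 had 0 counts in every library, and whether they were among the gene models counted by the authors is not known here. The other 70 had a median density of 3.88%, and 3 had at least 50%. How reads in shared bases were assigned, and how much of the counts of SOCS2-AS1 and HOXC13-AS is sense RNA, was not tested.

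**Figure D3:**
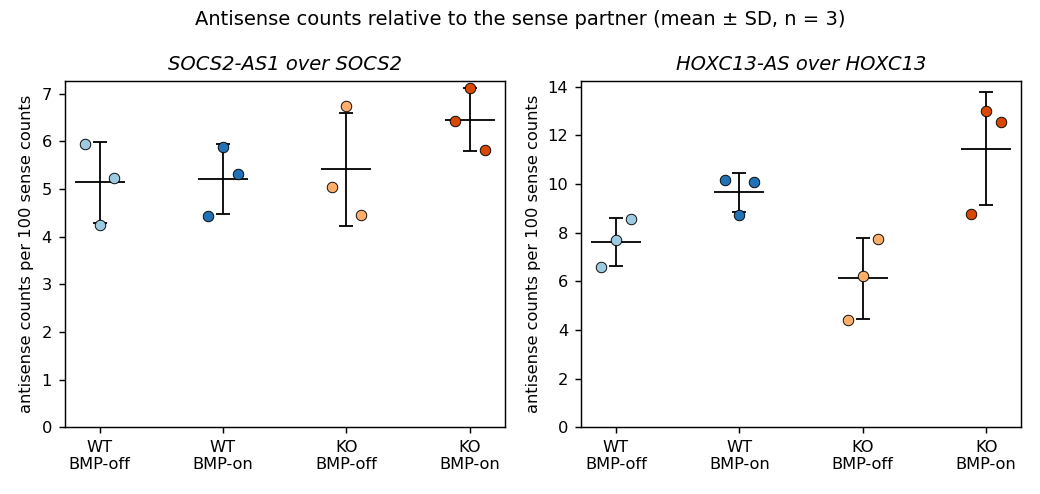
Counts of each antisense gene per 100 counts of its sense partner (y axis) for each library in the 4 groups (x axis), with mean and SD of 3 libraries. For SOCS2-AS1 the group means lie between 5.14 and 6.45, and for HOXC13-AS between 6.13 and 11.4 with the KO BMP-on libraries spread most.

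Other antisense and LINC genes were then set beside the members. Of 4069 such genes in the table, 733 were tested, 4 of them the members, which are left out here. With BMP-on, 8 of the other 729 (1.10%) were higher and 3 (0.412%) lower in WT cells, against 1.91% and 2.01% of all genes. In KO cells 52 (7.13%) were higher and 19 (2.61%) lower, against 11.1% and 10.9%, so these genes passed less often than genes at large. Passing also depends on the number of counts, and the 2 sets were not matched for it. Whether the lower share is a trait of noncoding genes was not tested. The median log2 fold change was 0.032 in WT and 0.10 in KO cells, against 0.0016 and 0.0056 over all genes. For KO against WT with BMP-on, 6 were higher and 6 lower (0.823% each, against 1.32% and 2.34% of all genes). Between KO and WT with BMP-off 0 passed, and likewise 0 for the interaction, by edgeR, DESeq2 or limma-voom, with 44 and 52 at an unadjusted p under 0.05 by edgeR.

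Outside the members, GATA2-AS1, antisense to the transcription factor gene GATA2, had the largest rise with BMP-on among such genes with at least 50 mean counts. It had 3.67, 4.30 and 4.64 CPM in WT BMP-off, 12.1, 11.5 and 13.3 in WT BMP-on, 5.86, 4.90 and 4.88 in KO BMP-off and 17.0, 17.0 and 16.6 in KO BMP-on. The 4 groups did not overlap. The log2 fold change was 1.56 ± 0.11 in WT and 1.69 ± 0.10 in KO cells (edgeR adjusted p = 2.33e-07 and 1.79e-08). LINC01411 rose by 0.87 ± 0.15 and 1.19 ± 0.15 (adjusted p = 0.00266 and 2.85e-05) and LINC02551 by 0.85 ± 0.17 and 1.23 ± 0.15 (adjusted p = 0.00727 and 3.04e-05). LINC00707 went down in both, by -0.53 ± 0.09 and -0.98 ± 0.09 (adjusted p = 0.00357 and 4.83e-06), whereas LINC00886 had no such value in WT cells. In KO cells ITGB2-AS1 and LINC03061 also went down (-0.77 ± 0.17 and -0.54 ± 0.11, adjusted p = 0.00502 and 0.00186).

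**Figure D4:**
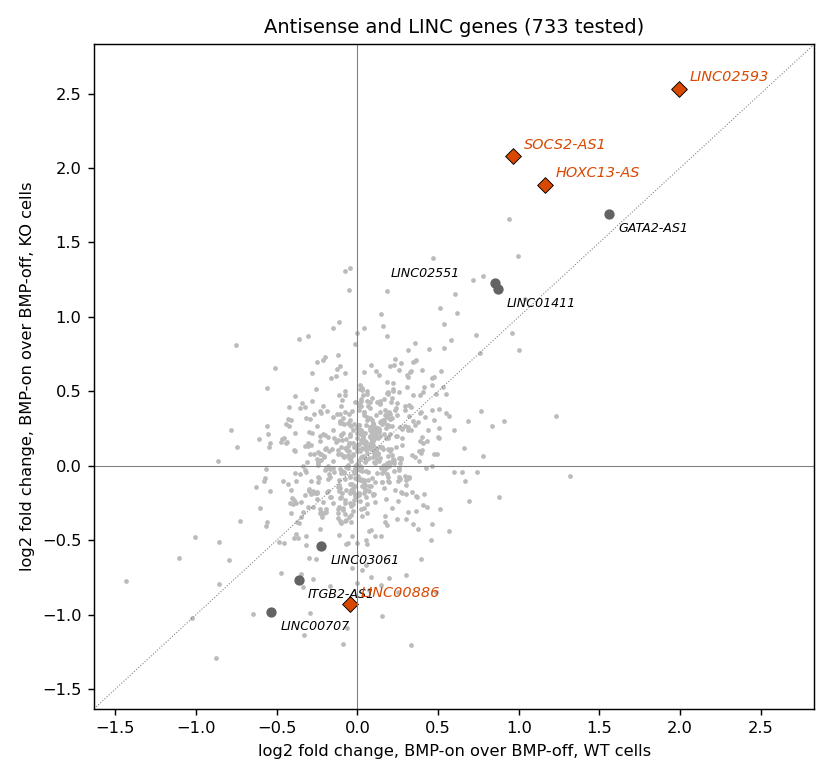
Log2 fold change with BMP-on in WT cells (x axis) and in KO cells (y axis) for the 733 tested antisense and LINC genes (grey), the members (diamonds) and the 6 other named genes (dark), with a dotted line of equal change. LINC02593, SOCS2-AS1 and HOXC13-AS lie at the upper right above the line and LINC00886 lies at -0.04 on x and -0.93 on y, and members were chosen on these values.

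Antisense genes named for a tested coding partner made 453 pairs. In WT cells 7 antisense genes and 25 partners passed, and both did in 3 pairs (42.9% of the antisense and 12% of the sense calls), SOCS2-AS1, HOXC13-AS and GATA2-AS1 with their partners, all higher together. In KO cells 53 and 130 passed, both in 23 pairs (43.4% and 17.7%), with the same direction in 22. Apart from GATA2-AS1, the WT pairs hold members that were chosen on these contrasts, so the WT shares are set in large part by that choice. The same members are among the KO pairs, and the 2 genes of many pairs overlap, so all these shares are a description.

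The genes whose pattern over the 12 libraries was most like each member were found by Pearson correlation of log2 CPM, among tested genes with at least 50 mean counts. The libraries share 4 groups, so a high value reflects group means and carries no p. For SOCS2-AS1 they were ZNF641 (0.983), NEBL (0.982), which encodes nebulette, and ATP1B1 (0.979), a Na/K-ATPase subunit gene, and SOCS2 itself had 0.974. For HOXC13-AS they were KLF4, ACOT11 and ADGRG1 (each 0.971), and HOXC13 had 0.939. For LINC00886 they were PCLAF (0.949), which encodes a PCNA-associated factor, G2E3 (0.948) and MZT1 (0.946), a spindle microtubule nucleation gene. For LINC02593 they were SLC9B2 (0.984), ACTC1 (0.983), which encodes cardiac actin, and KLF13 (0.980), and SAMD11 had 0.918. PCLAF, MZT1 and G2E3 had their lowest group mean in KO BMP-on, at 36.7, 63.2 and 56.7 CPM. This follows from their choice by likeness to LINC00886 and is a description.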

How the data were processed

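The authors removed ribosomal reads, aligned 50-base single-end reads to GRCh38 with GSNAP (at most 2 mismatches) and counted reads on exons with HTSeqGenie, per the methods by RefSeq release 106. The deposited counts per gene are whole numbers without normalization, for 58302 Ensembl identifiers, and depth was 19124010 to 29498000 counts per library. The deposited RPKM values were scaled by the authors for depth and gene length and served for levels between genes and for alternatives. The library kit (a stranded and an unstranded one are both described) and the use of strand in counting are not given in the sources used here. GENCODE v44 gave symbols, exons and positions for 57532 identifiers, and 0 sample columns were left out.

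Counts were fitted with R 4.3.3 and edgeR 4.0.16 (TMM, default filter on low counts, robust quasi-likelihood, 1 model over 4 groups) in 5 comparisons, namely the effect of BMP-on within each genotype, that of KO within each BMP condition, and their interaction. An adjusted p is from the Benjamini-Hochberg method over all 17188 genes, and genes passed at 0.05 or less. The design has no other error than that between 3 libraries a group. Scripts were tested on simulated counts. No pair of replicates agreed within sampling noise. The members, the neighbour window of 100 kb, the gene lists, the motifs and the rule for naming genes were chosen with earlier results of these data known. Named are the members, their tested neighbours, the HOXC genes, 9 BMP targets, MIB1, the 3 genes most like each member (log2 CPM, prior count 2) and up to 3 antisense or LINC genes per direction with the largest BMP responses and at least 50 mean counts. Markers were named in a fixed list. Other settings tried were DESeq2 1.42.0, quantile-normalized limma-voom (limma 3.58.1, the tool of the study), limma on log2(RPKM + 0.1) or log2(RPKM + 1) values, library size scaling, 2 other filters, a GC correction, a replicate block, windows of 50 and 250 kb and each library left out.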

Additional observations from a re-analysis of the deposited data

Results flagged for a closer look

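Tests of the difference between the BMP responses in KO and WT cells (edgeR interaction term) stood out for 2 genes among the neighbours and BMP targets. SOCS2, the sense partner of SOCS2-AS1, responded more in KO by 0.88 ± 0.08 on the log2 scale (Benjamini-Hochberg adjusted p = 7.2e-05), and BAMBI, which encodes a BMP pseudoreceptor, by 0.96 ± 0.12 (adjusted p = 0.00263). Over all genes 16 of 17188 (0.0931%) passed for the interaction, and 3 with the replicate block. In both genes, all 3 KO BMP-on libraries were above all 3 WT BMP-on libraries. That compares levels with BMP-on and not the responses, and the share of all genes with such separation was not worked out. BAMBI was not followed through the other settings here. SOCS2-AS1 had a difference of 1.11 ± 0.27, given without a test because its choice used these contrasts. With 3 libraries a group, single libraries were not screened for outlying values.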

How the results depend on the processing

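No value changed sign where it had been called, and 19 to 22 of the 21 or 22 alternatives run for each member and comparison kept its value within the spread of its replicates. The exceptions were mostly on log2(RPKM + 1), which shrinks low genes. There SOCS2-AS1 had 0.28 (WT BMP response), 0.81 (KO), 0.56 (KO against WT with BMP-on) and 0.54 (interaction), HOXC13-AS 0.57 (WT) and 1.03 (KO), LINC00886 -0.30 (KO), -0.34 (BMP-on) and -0.28 (interaction), and LINC02593 0.73 (WT), 1.21 (KO), 0.61 (BMP-on) and 0.13 (BMP-off). On log2(RPKM + 0.1), with or without a filter on low values, SOCS2-AS1 in KO was 1.77 and LINC00886 with BMP-on was -0.88.

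Antisense and LINC genes past the test, here with the members, 14 in the WT BMP response, were 22 with the GC correction. For KO against WT with BMP-on, 15 became 9 on log2(RPKM + 0.1) without a filter. With BMP-off, 0 became 1 without a filter on low counts, and for the interaction 0 became 2 with the GC correction and 4 without a filter. The 0 neighbours past the test with BMP-off became 1 with the GC correction and 1 without a filter.

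Leaving out 1 library gave LINC02593 between 1.81 and 2.35 in WT, between 0.22 and 0.84 for KO against WT with BMP-off and between 0.18 and 0.80 for the interaction, where WT BMP-off replicate 1 set the last (0.18) and the highest of the first 2. Antisense and LINC calls ranged from 7 to 17 in WT (7 without WT BMP-off replicate 2, 9 without WT BMP-on replicate 1 or 2), from 48 to 84 in KO (48 and 49 without KO BMP-on replicate 1 and 2), from 5 to 17 for KO against WT with BMP-on (5 without WT BMP-on replicate 3, 7 or 9 without the other KO or WT BMP-on libraries named below), from 0 to 1 with BMP-off and from 0 to 2 for the interaction. The libraries behind 7 were KO BMP-on replicates 1 and 3 and WT BMP-on replicate 2, and that behind 9 was KO BMP-on replicate 2. LINC02593 could not be fitted with at least 10 counts in every library. On log2(RPKM + 0.1) without a filter, TIPARP in WT, TIPARP for KO against WT with BMP-on and PERM1 in WT also missed the threshold (adjusted p = 0.121, 0.122 and 0.132), as did TIPARP in WT on log2(RPKM + 1) (adjusted p = 0.0508).

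Over all genes, calls in the WT response (674) were 1517 with the GC correction, 1047 without a filter on low counts, 350 on log2(RPKM + 0.1) without a filter, and from 366 (without WT BMP-on replicate 1) to 1118 (without KO BMP-off replicate 2) with 1 library left out. Those in the KO response (3777) were 2495 on log2(RPKM + 0.1) without a filter, and from 2314 (without KO BMP-on replicate 1) to 5323 (without KO BMP-off replicate 3). Those for KO against WT with BMP-on (630) were 1272 with the GC correction, 281 on log2(RPKM + 0.1) without a filter, and from 326 (without WT BMP-on replicate 3) to 862. With BMP-off, 7 became 80 with the GC correction, 233 without a filter on low counts, 35 by DESeq2, and from 2 to 50 (without KO BMP-off replicate 3). For the interaction, 16 became 250, 318 and 154 in these settings, 3 with the replicate block, and from 4 to 236 (without WT BMP-off replicate 1).

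Residuals gave little sign that replicate numbers pair libraries, with a correlation above 0.1 in 2 of 18 same-numbered pairs. The labels do not say whether same-numbered libraries were paired. With the replicate block, the log2 fold change in KO was 2.09 for SOCS2-AS1, 1.89 for HOXC13-AS, -0.93 for LINC00886 and 2.53 for LINC02593, with 7 and 9 neighbours past the test in the WT and KO responses. Counts of 6 to 120 per library limit what the members can show about small differences, such as those with BMP-off.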
